A study of Mus musculus with 24 samples.

Results

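The genes described are 10 genes of myoblast fusion and of the muscle cell surface, taken by name: Mymk, Mymx, Cdh15, Cdh2, Ncam1, Itga7, Itgb1, Cdon, Cav3 and Dysf. They are 10 of the 15564 annotated genes with reads in either of 2 mouse cell lines. C2C12 is a myoblast line that fuses into myotubes in culture, and NSC34 is a motor-neuron-like hybrid line. The groups were C2C12 cells kept with NSC34 cells for 3 days (co-culture), C2C12 cells without co-culture (control), NSC34 cells co-cultured in the same way, and NSC34 cells without co-culture (control). Each group had 6 libraries, 24 in all, and both lines are given as wild type in every group. Each line is 1 immortalised line, and how they were separated at the end of co-culture is not in the labels. Total RNA was sequenced with a Nanopore MinION, and the deposited values are reads per transcript, summed here to genes. All 10 genes had C2C12 reads and 3 of them had NSC34 reads.

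Myoblasts become muscle fibres by fusing with each other. The cells first recognise and adhere to each other through cadherins and immunoglobulin-type receptors. A pair of muscle-specific membrane proteins, myomaker (Mymk) and myomixer (Mymx), then drive the merging of the membranes, myomaker at the early mixing of lipids and myomixer at the opening of the pore. The new fibre is tied to laminin by the α7β1 integrin (Itga7 and Itgb1), and its membrane is shaped and repaired with the help of caveolin-3 (Cav3) and dysferlin (Dysf).

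C2C12 libraries held 121154 to 658075 reads and NSC34 libraries 88 to 30314. Levels are given as CPM, a gene's reads scaled to a fixed library total, over all reads of a library. The 8 myogenic markers were all read in C2C12. Their summed level was 8514 to 9902 CPM in co-culture and 6046 to 8327 CPM in control, so that the groups did not overlap. Of the single genes tested, 1.05% had every co-culture library above every control. Most of the marker reads were of Myog and Acta1 (5451 and 6130 of 16684 in co-culture, 3530 and 4728 of 11707 in control). Myh3 went the other way in total reads, with 646 in co-culture and 748 in control. Chat, Isl1 and Mnx1, which define motor neurons, were at 0 reads in every C2C12 library. The 15 neuronal markers together had 179 to 214 CPM in co-cultured C2C12 cells and 178 to 239 CPM in control C2C12 cells, most of it from Stmn2 and Tubb3. In NSC34 cells, co-cultured libraries had 628 to 1657 CPM of these markers and control libraries 0 to 1730 CPM. Chat had 1 read and Isl1 2 reads in co-cultured NSC34 cells, Isl1 had 1 read in control NSC34 cells, and Mnx1 had none in either. The 8 myogenic markers had 2 reads in co-cultured NSC34 cells (Tnnt1) and 2 in control NSC34 cells (Tnnt1 and Myh3), at 0 to 331 CPM in co-culture and 0 to 245 CPM in control, and Myog had none. In bulk RNA, fewer cells of a type and less RNA per cell cannot be told apart.

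Promoter windows span 250 bases before to 50 after the RefSeq gene start (GRCm38.p6). They are shown for a muscle cadherin, the muscle caveolin and the integrin subunit with the lowest p below, with the letters of the E-box marked. That motif, CANNTG, is a general pattern, and myogenic factors of the MyoD family favour only some of its forms. It reads the same on both strands, so a search of 1 strand covers both, and it is in capitals below. The windows are of the muscle cadherin Cdh15 (chr8:122848124-122848423, plus strand), of Cav3 (chr6:112459255-112459554, plus strand) and of the widely expressed integrin subunit Itgb1 (chr8:128685404-128685703, plus strand).
Cdh15: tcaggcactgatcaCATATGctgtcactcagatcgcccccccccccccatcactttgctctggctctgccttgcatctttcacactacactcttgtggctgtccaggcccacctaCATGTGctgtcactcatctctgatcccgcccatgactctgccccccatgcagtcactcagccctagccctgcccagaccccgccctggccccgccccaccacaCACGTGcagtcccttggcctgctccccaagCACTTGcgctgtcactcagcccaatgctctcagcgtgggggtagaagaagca
Cav3: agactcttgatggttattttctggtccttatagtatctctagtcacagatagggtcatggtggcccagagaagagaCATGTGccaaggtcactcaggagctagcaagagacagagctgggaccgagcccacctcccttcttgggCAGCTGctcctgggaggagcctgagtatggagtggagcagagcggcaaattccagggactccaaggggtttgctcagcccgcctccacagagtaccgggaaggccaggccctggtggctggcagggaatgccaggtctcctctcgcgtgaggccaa
Itgb1: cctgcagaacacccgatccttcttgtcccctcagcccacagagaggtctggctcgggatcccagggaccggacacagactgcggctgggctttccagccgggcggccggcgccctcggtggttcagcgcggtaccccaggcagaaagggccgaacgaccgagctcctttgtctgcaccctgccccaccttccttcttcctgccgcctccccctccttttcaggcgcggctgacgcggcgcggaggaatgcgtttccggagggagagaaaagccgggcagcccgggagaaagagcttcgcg
The Cdh15 window held 4 matches and the Cav3 window 2, while these letters were not in the Itgb1 window, nor in the Cdon window. Dysf has 2 windows, of which 1 held 1 match and the other none. Of all 32851 windows of this length in the table, 72.3% held at least 1 match, so a match by itself is common. The Cav3 and Itgb1 windows end 50 bases after the gene start of the annotation used for the reads, whereas the Cdh15 window lies inside the annotated gene. Windows were at hand for 5 of the 10 genes, these 5.

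The first question was whether co-culture with NSC34 altered these genes in C2C12. No fusion or surface gene that could be tested passed. The fusogens, the cadherins, Ncam1 and the integrin α7 subunit all had co-culture and control libraries at overlapping levels, and the largest tested difference was a lower Itgb1. Of the 10 genes, 7 had enough reads to be tested, and 0 of the 7 passed an adjusted p of 0.05 in edgeR, where 1.44% of the 2570 genes tested passed (21 higher, 16 lower). DESeq2 and limma-voom also called 0 of the 7. Only Itgb1 had an unadjusted p under 0.05, as did 14.7% of all genes tested. None of the 7 had groups that did not overlap, which 1.71% of all genes tested had. Of the 7 log2 fold changes 3 were above 0 and 4 below, with a median of -0.04, against 0.00 over all genes tested. Together the 10 genes took 2786 co-culture reads (0.154%) and 2520 control reads (0.168%).

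**Figure D1:**
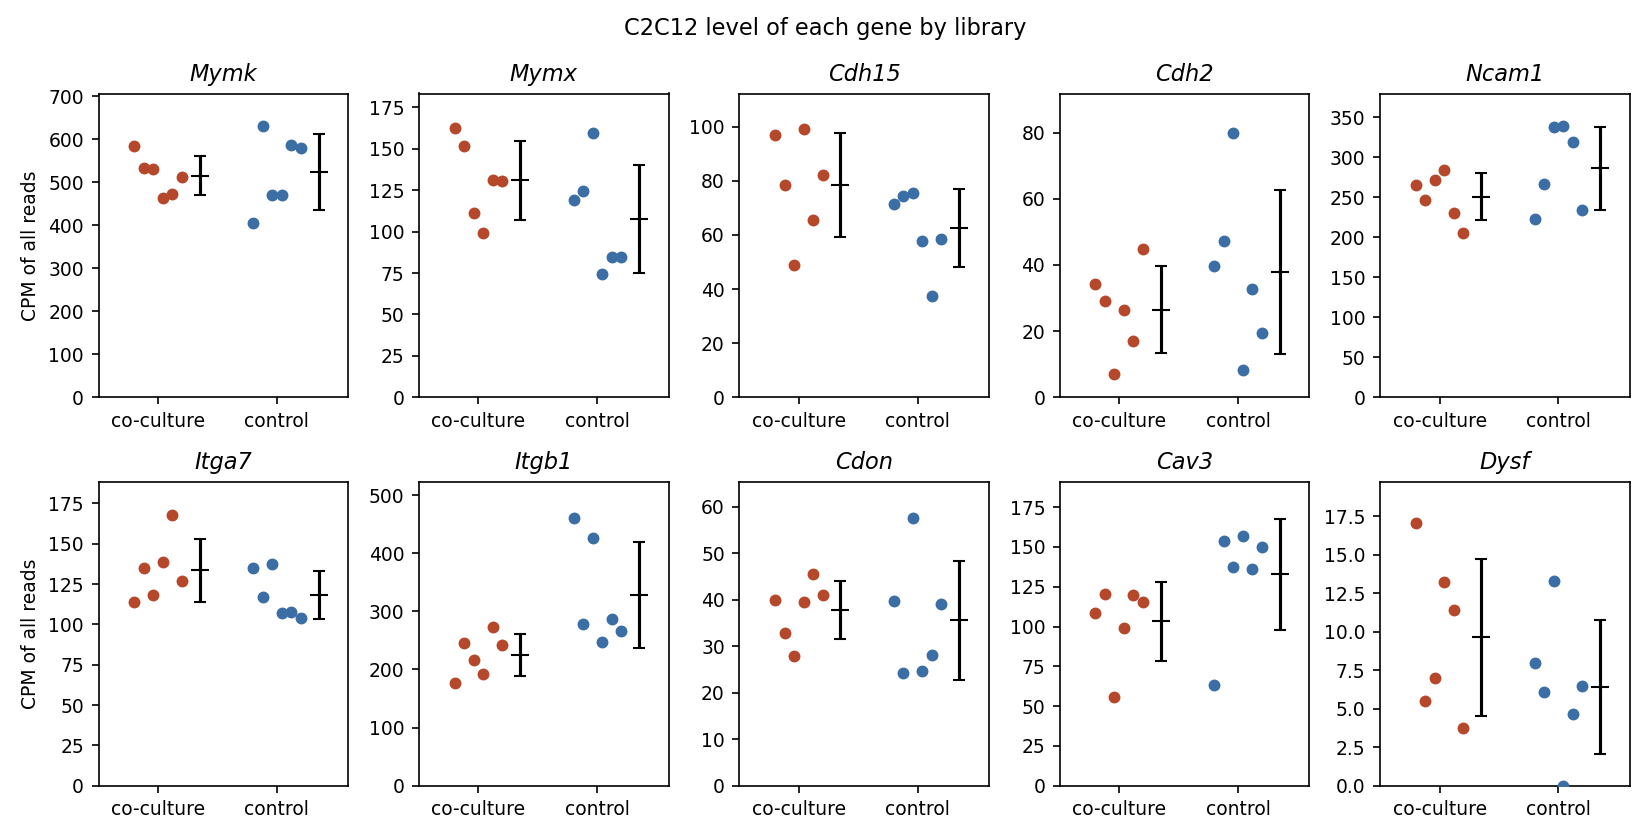
Level of each of the 10 genes in every C2C12 library, in CPM of all reads, with co-culture left of control (points are libraries in the order 1 to 6, bars are mean ± SD, n = 6). The groups overlap in every panel; Itgb1 shows the clearest shift, with co-culture at 177 to 273 CPM and control at 248 to 461 CPM.

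Mymk (chromosome 2, 27061636 to 27072179, minus strand, GRCm38) was the most abundant of the 10 genes. It had 462, 520 and 584 CPM as the lowest, median and highest co-culture library, against 405, 525 and 631 CPM in control. The co-culture libraries lay within the range of the controls. Its log2 fold change was -0.04 (SE 0.102, 95% interval -0.25 to 0.17, with an adjusted p of 0.937 in edgeR), a sign that turned when the read filter was dropped (0.05) or when control 2 was left out (0.02). Of its 1788 reads, 99.8% lay on Mymk-201, which codes for 221 codons.

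Mymx (chromosome 17, 45600971 to 45602102, minus strand) encodes the micropeptide partner of myomaker, 84 codons long in the transcript Mymx-203 that held 99.8% of its reads. It had 99.1, 131 and 162 CPM as lowest, median and highest in co-culture, against 74.3, 102 and 160 CPM in control. Control libraries 4, 5 and 6 were at 74.3, 84.4 and 84.6 CPM, below every co-culture library, while control 3 was near the top of the co-culture range. The log2 fold change was 0.28 (SE 0.183, 95% interval -0.10 to 0.66, with an adjusted p of 0.523 in edgeR). Over the 12 libraries the Mymx level ran with depth (Spearman's rho 0.664 with total reads), whose part in the difference was not tested. The levels of the fusogens did not run together, with a Spearman's rho of -0.04 between Mymk and Mymx over 12 libraries that share their depth with both.

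Cdh15 (chromosome 8, 122847966 to 122867397, plus strand) encodes M-cadherin, the cadherin of myoblasts and satellite cells. It had 48.8, 80.3 and 99.1 CPM as lowest, median and highest in co-culture, against 37.5, 65.0 and 75.4 CPM in control. Of the co-culture libraries 4 of 6 were above every control, but the lowest was below most of them. The log2 fold change was 0.31 (SE 0.207, 95% interval -0.12 to 0.74, with an adjusted p of 0.547 in edgeR). All its reads were on 1 annotated transcript, Cdh15-201.

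Cdh2 (chromosome 18, 16588877 to 16809246, minus strand), N-cadherin, is a cadherin of myoblasts and of neurons. It had 6.97, 27.8 and 44.8 CPM as lowest, median and highest in co-culture, against 8.25, 36.3 and 79.9 CPM in control. It had too few reads to be tested (51 in co-culture, 65 in control), of which 98.3% were on Cdh2-201. In the fit without a read filter, in which 0.687% of 15439 genes passed, its log2 fold change was -0.48 (SE 0.318, with an adjusted p of 0.611 in edgeR).

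Ncam1 (chromosome 9, 49502136 to 49798925, minus strand), the neural cell adhesion molecule, is found on myotubes, on denervated muscle and on neurons. It had 205, 256 and 284 CPM as lowest, median and highest in co-culture, against 222, 292 and 338 CPM in control. The upper controls lay above every co-culture library and the lower ones among them. The log2 fold change was -0.20 (SE 0.128, 95% interval -0.47 to 0.06, with an adjusted p of 0.516 in edgeR). Its exons overlap those of Gm11149 on the opposite strand, which had 0 C2C12 reads, as had the opposite-strand partners of Itga7 (Mettl7b) and Dysf (Gm15475 and Gm33024).

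Cdon (chromosome 9, 35421128 to 35507652, plus strand) encodes a receptor of the immunoglobulin superfamily that binds cadherins and promotes myogenic differentiation. It had 27.9, 39.8 and 45.5 CPM as lowest, median and highest in co-culture, against 24.3, 33.6 and 57.7 CPM in control. The co-culture libraries lay within the control range. It was below the read filter, and the fit without a filter gave a log2 fold change of 0.27 (SE 0.317, with an adjusted p of 0.750 in edgeR).

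Itga7 (chromosome 10, 128933818 to 128958282, plus strand) encodes the laminin-binding α subunit of skeletal muscle. It had 114, 131 and 168 CPM as lowest, median and highest in co-culture, against 104, 112 and 138 CPM in control. The groups overlapped. The log2 fold change was 0.20 (SE 0.152, 95% interval -0.12 to 0.51, with an adjusted p of 0.637 in edgeR).

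Itgb1 (chromosome 8, 128685654 to 128733200, plus strand) encodes the β1 subunit that pairs with α7 and with many other α subunits. Its co-culture libraries 1 to 6 had 177, 245, 216, 192, 273 and 243 CPM, against 461, 278, 426, 248, 286 and 267 CPM in control libraries 1 to 6. Controls 1 and 3 stood well above the rest, and co-culture 5 was above controls 4 and 6, so that the groups overlapped. The log2 fold change was -0.51 (SE 0.161, 95% interval -0.84 to -0.17, unadjusted p = 0.00516, edgeR adjusted p = 0.108). Leaving out each library in turn gave -0.59 to -0.40 with adjusted p between 0.0854 and 0.313, and the other settings tried gave -0.53 to -0.39 with adjusted p between 0.0869 and 0.237. The direction held in each of these and the test was passed in none. Almost all reads were on Itgb1-201 (99.3%), and the transcript annotated as a target of nonsense-mediated decay, Itgb1-202, had 0 co-culture and 6 control reads.

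Cav3 (chromosome 6, 112459505 to 112472872, plus strand) encodes the muscle caveolin, the coat protein of membrane pits. It had 55.7, 112 and 121 CPM as lowest, median and highest in co-culture, against 63.6, 144 and 157 CPM in control. All controls other than the lowest, control 1, were above every co-culture library. The log2 fold change was -0.33 (SE 0.187, 95% interval -0.72 to 0.06, with an adjusted p of 0.439 in edgeR). Without control 1 it was -0.43 (adjusted p = 0.270), and without co-culture 3, the low co-culture library, -0.24 (adjusted p = 0.595). All its reads were on Cav3-201.

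Dysf (chromosome 6, 84008590 to 84211060, plus strand) encodes dysferlin, which mediates resealing of the muscle membrane. It had 17 reads in co-culture and 10 in control, at 3.73, 9.18 and 17.1 CPM as lowest, median and highest in co-culture against 0, 6.29 and 13.3 CPM in control. At this depth a change could not be seen: the fit without a filter gave 0.57 with a 95% interval of -0.68 to 1.81 on the log2 scale (edgeR adjusted p = 0.728).

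**Figure D2:**
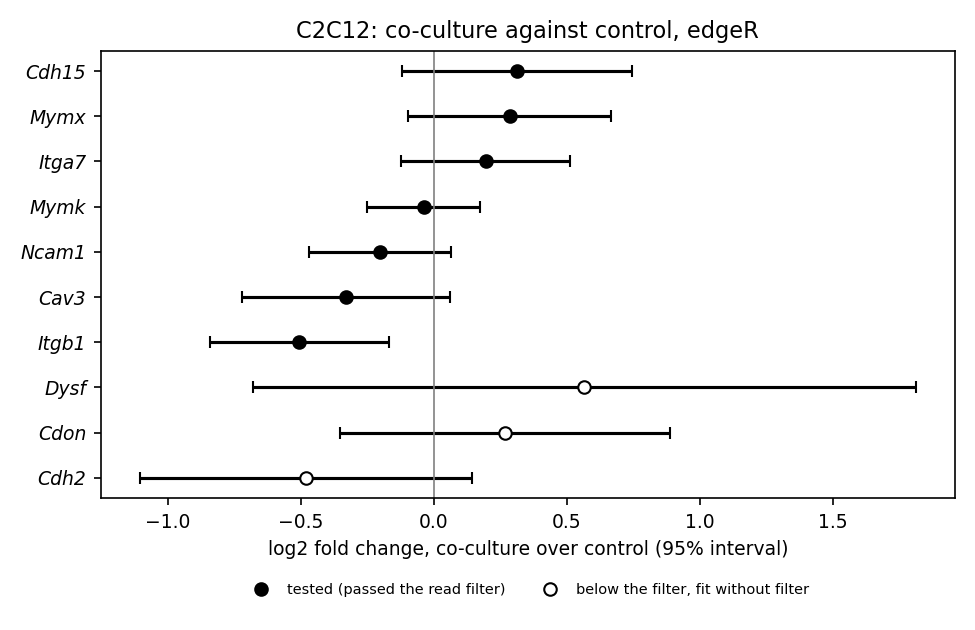
Log2 fold change of each gene, co-culture over control in C2C12, with its 95% interval from edgeR; filled points are the 7 tested genes and open points the 3 below the read filter, from the fit without it. Among the 7, the interval of Itgb1 (-0.84 to -0.17) is the one that leaves out 0, and the interval of Dysf is the widest of all 10.

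Per kilobase of transcript, the genes kept 1 order in both conditions: Mymk, Mymx, Cav3, Itgb1, Ncam1, Itga7, Cdh15, Cdh2, Cdon and Dysf. Mymk averaged 373 ± 32.1 CPM per kb in co-culture and 379 ± 63.2 CPM per kb in control (SD, n = 6 each). At the other end Dysf averaged 1.57 ± 0.834 CPM per kb in co-culture and 1.05 ± 0.708 CPM per kb in control. Neighbours whose libraries did not overlap in either condition were Mymk and Mymx, Itga7 and Cdh15, and Cdon and Dysf. In co-culture alone, Mymx also stood above Cav3 and Cdh15 above Cdh2. The other neighbours overlapped, so that Cav3 overlapped Itgb1, Itgb1 overlapped Ncam1 and Ncam1 overlapped Itga7 in both conditions. On this platform 1 read can span a whole molecule. Division by length can then understate long genes such as Dysf and Cdon and raise short ones such as Mymx and Cav3. In mean CPM without this division, the order was not the same in both conditions. Ncam1 then stood above Itgb1 in co-culture and below it in control, and both stood above Itga7, Mymx and Cav3. Mymx stood below Itga7 in both conditions, and Cav3 stood below Mymx in co-culture only.

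A read ratio within a library does not depend on its scaling. For each pair of the 7 tested genes the ratio was compared between conditions, 21 pairs in all, and in 2 of the 21 the groups did not overlap. Over all 3301165 pairs of tested genes this was so for 1.14%. The integrin subunits formed 1 such pair: Itga7 had 52.3, 58.3 and 72.4 reads per 100 Itgb1 reads as the lowest, median and highest co-culture library, against 29.3, 38.4 and 43.3 in control. The means were 60.1 ± 7.55 in co-culture and 37.3 ± 5.50 in control (SD, n = 6), a log2 ratio of 0.69. With 1 library left out the log2 ratio was 0.63 to 0.74. The groups did not overlap with the intron-containing transcript Itga7-205 left out (0.67). They overlapped when only the long transcripts Itga7-201 and Itga7-202 were counted (0.65) or only the short Itga7-204 (0.68). The other pair was Mymx to Itgb1, with 47.9, 52.8 and 91.9 Mymx reads per 100 Itgb1 reads in co-culture against 25.9, 30.9 and 44.8 in control. Both pairs share Itgb1, and both were picked out by their values, so no test is given. Mymx per 100 Mymk reads overlapped, at 21.1, 26.6 and 28.5 in co-culture and 14.4, 17.8 and 34.0 in control.

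**Figure D3:**
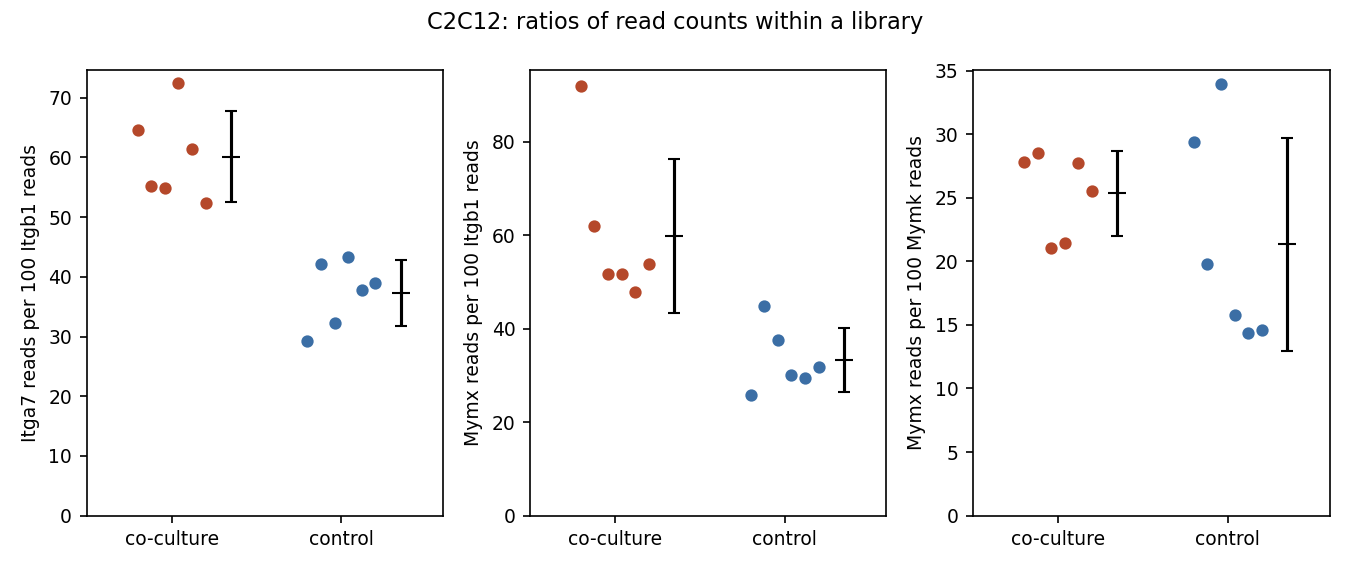
Reads of one gene per 100 reads of another in each C2C12 library, co-culture left of control (points are libraries, bars are mean ± SD, n = 6). The groups are apart for Itga7 over Itgb1 (52.3 to 72.4 against 29.3 to 43.3) and for Mymx over Itgb1, and overlap for Mymx over Mymk.

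Long reads are assigned to transcripts, and 4 of the genes had more than 1 transcript with at least 10% of the gene's reads. For Dysf these were Dysf-211 (10 co-culture and 8 control reads) and Dysf-201 (4 reads, all in co-culture 5, and 0 in control), too few to compare. For Ncam1, Ncam1-204 (848 codons, 6050 bases) held 65.2% of co-culture and 64.9% of control reads, and Ncam1-201 (725 codons, 2567 bases) held 28.3% of co-culture and 29.0% of control reads. For Itga7, 44.1% of co-culture and 42.9% of control reads were on Itga7-204, a 984-base model of the 3′ end of the gene. Itga7-201, the full coding transcript of 1136 codons, had 33.1% in co-culture and 37.3% in control. The retained-intron model Itga7-205 held 16.3% in co-culture and 15.8% in control, and shares at least 100 bases at 90% identity or more with 147 other genes, so its reads are uncertain. No other Itga7 transcript shared such sequence. In Ncam1 and Itga7 the shares overlapped between conditions, and both of the leading transcripts had reads in 12 of 12 libraries. In the transcript fit, 0 of the 8 tested transcripts of these genes passed in edgeR, where 0.387% of 2586 transcripts passed. At an unadjusted p under 0.05 there was 1 of the 8, Itgb1-201, and 10.9% of all. With limma-voom 0 of the 8 passed. DESeq2 called none of them either, but gave no adjusted p for Itga7-204, Cdh15-201 and Ncam1-201.

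Cdon differed from Ncam1 and Itga7 in that no library had reads of both its main transcripts. Cdon-202 had 14, 18, 4 and 16 reads in co-culture 1, 2, 3 and 5, and 0 reads in co-culture 4 and 6 and in the 6 controls. Cdon-201 had 5 and 11 reads in co-culture 4 and 6 and all 49 control reads, between 3 and 16 a library, and co-culture 4 had 1 further read on Cdon-206. The pooled Cdon-202 level was 28.7 CPM in co-culture, 14.3 times the 2.0 CPM that 0 reads allow over the pooled controls. This ratio treats the reads of a group as 1 pool and covers no spread between libraries, and co-culture 4 and 6 were at 0. In the fit without a read filter, which 0.334% of 37677 transcripts passed, Cdon-202 passed (edgeR adjusted p = 6.36e-05). Cdon-201 had a log2 fold change of -1.62 there (SE 0.578, with an adjusted p of 0.384 in edgeR). That fit takes no account of reads that fall on only 1 of the 2 main transcripts in each library. Both transcripts code for 1250 codons. They share 7213 bases, and Cdon-202 adds 290 bases at a start 30518 bases upstream, which reads that stop short of the 5′ end cannot separate. Of 1130 genes with 2 transcripts that each had at least 20 reads and 20% of the gene's reads, 91 (8.05%) also had no library with both. The part of the read assignment in the Cdon pattern was not tested.

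**Figure D4:**
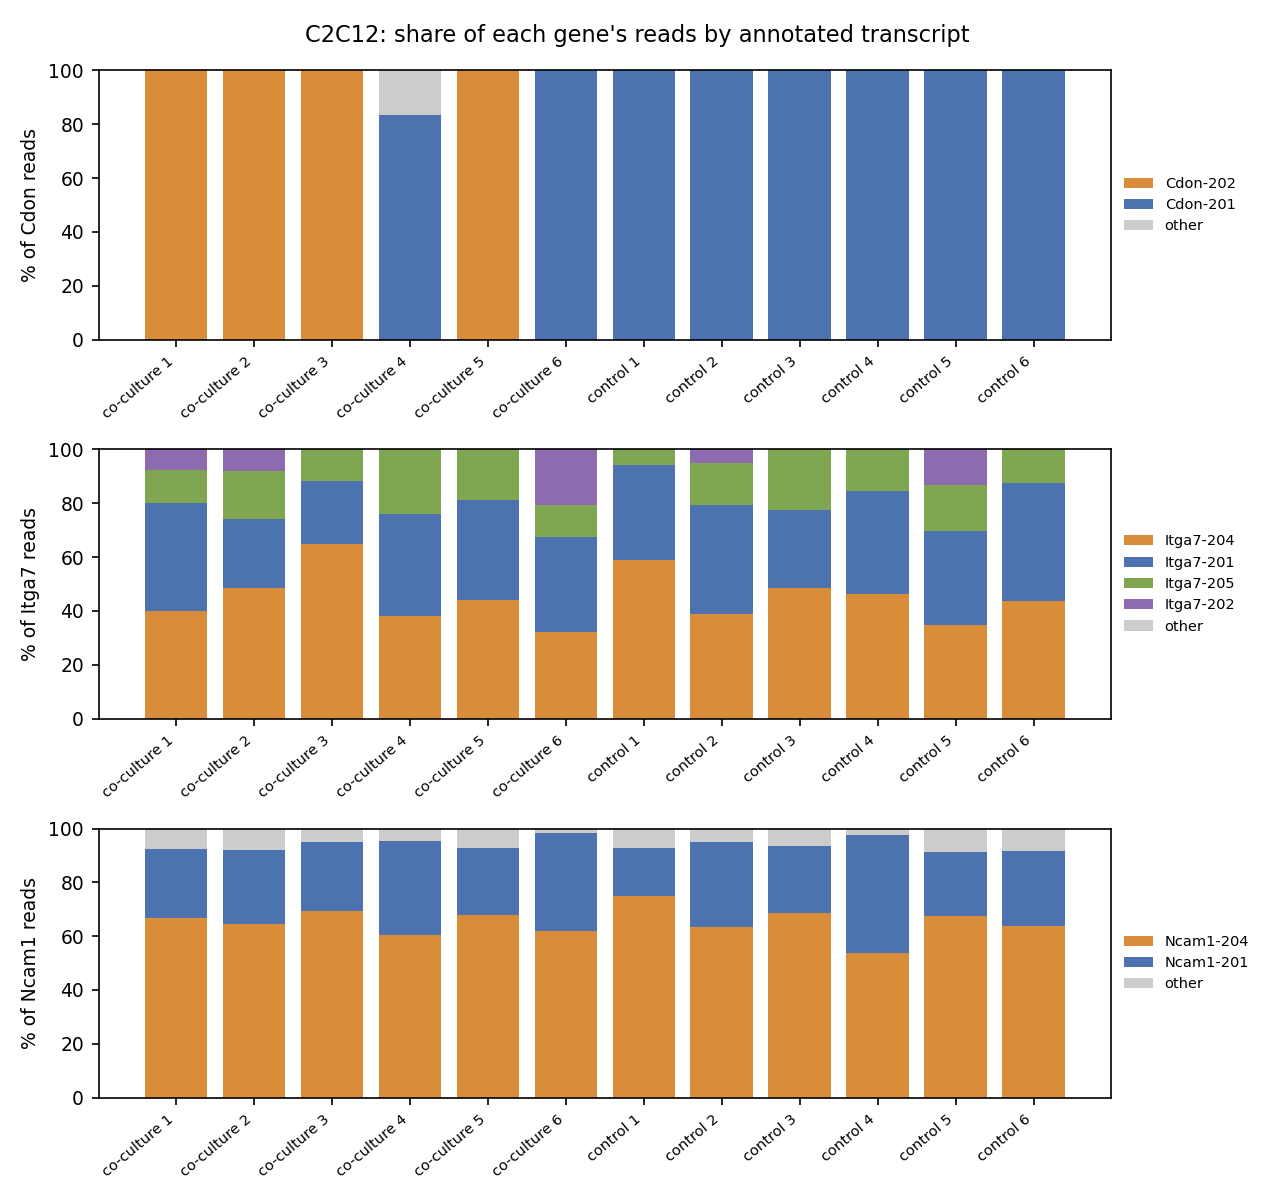
Share of each gene's reads by annotated transcript in every C2C12 library, in percent, with the 6 co-culture libraries left of the 6 controls, for Cdon (top), Itga7 (middle) and Ncam1 (bottom). Cdon reads fall on Cdon-202 in co-culture 1, 2, 3 and 5 and on Cdon-201 in the others, whereas Itga7 and Ncam1 have both of their leading transcripts in every library.

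The genes that work beside these were described by lists. In the cadherin-catenin list, 0 of 4 tested genes passed, with Ctnna1 (α-catenin, which links cadherins to actin) at -0.32 on the log2 scale (edgeR adjusted p = 0.642). Pkp4 of that list had -0.24 (edgeR adjusted p = 0.730). Among other fusion receptors 0 of 5 passed, and the tetraspanins Cd81 and Cd9 had log2 fold changes of 0.20 and -0.14 (edgeR adjusted p = 0.365 and 0.690). Among integrin partners 0 of 7 passed, with talin-1 (Tln1) at -0.35 and focal adhesion kinase (Ptk2) at -0.36 (edgeR adjusted p = 0.425 and 0.582) and a list median of -0.23. Among the actin regulators of fusion 0 of 14 passed. Wasf2, a subunit of the complex that activates branched actin growth, had -1.0 on the log2 scale (edgeR adjusted p = 0.0654). Rhoa had 0.22 (edgeR adjusted p = 0.324). These 4 lists had 0 genes past the threshold in DESeq2 and limma-voom too, against 1.44% of all genes in edgeR.

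Of 16 tested genes of caveolae and membrane repair, 1 fell: Ahnak, a giant scaffold protein that is found with dysferlin at the muscle membrane, by 0.65 on the log2 scale (SE 0.150, with an adjusted p of 0.0349 in edgeR). Cavin1, the coat partner of caveolins, had -0.36 (edgeR adjusted p = 0.187), and the list median was -0.07. Of 3 tested regulators of fusion genes 1 rose and 1 fell. Myog, which switches on differentiation genes, rose by 0.43 (SE 0.106, with an adjusted p of 0.0457 in edgeR). Mef2a, a partner of the MyoD family, fell by 1.22 (edgeR adjusted p = 0.0415), and Mef2c had -0.46 (edgeR adjusted p = 0.221). With limma-voom, or with the trend of fold change on transcript length removed, Ahnak, Myog and Mef2a did not pass. Ahnak also did not pass when any 1 of controls 1 to 3 or co-cultures 1 to 4 was left out, and neither Myog nor Mef2a passed without any 1 of controls 1 to 3 or co-cultures 3 to 6. Among the myogenic markers 3 of 6 tested rose (Ckm, Tnnt1 and Myog), where 0.817% of all genes tested rose and 0.623% fell. Of the 6, 5 had a log2 fold change above 0, and Myh3 had -0.37 (edgeR adjusted p = 0.394). The part of these markers in the values of the 10 genes was not tested.

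The second comparison set C2C12 beside NSC34. Most of these genes were not seen in NSC34 at the depth reached. Of 70865 NSC34 reads 13 fell on the 10 genes: 10 of 55007 in co-culture (0.0182%) and 3 of 15858 in control (0.0189%). Itgb1 had 6 reads in co-culture and 2 in control, Ncam1 had 3 in co-culture and 1 in control, and Dysf had 1 in co-culture and 0 in control. Pooled over both conditions, 0 reads allow up to 42.3 CPM in NSC34 with 3 reads as the limit, and the exact 95% interval reaches 52.1 CPM. By the 42.3 CPM limit, Mymk, at 540 CPM in C2C12, was at least 12.8-fold higher in C2C12. Such bounds treat the reads of a line as 1 pool and cover no spread between libraries. Each line has its own table and its own range of depth, so line, table and depth cannot be told apart. The bounds were 3.03 for Mymx, 3.01 for Itga7, 2.93 for Cav3 and 1.73 for Cdh15. By condition, the Mymk bound was 9.56 between the co-cultured lines and 2.98 between the control lines. Mymx, Itga7, Cav3 and Cdh15 had bounds of 2.55, 2.48, 2.02 and 1.46 between the co-cultured lines and none between the control lines. Cdh2 and Cdon, both under 42.3 CPM in C2C12, could not be compared. With both conditions pooled, Ncam1 was 4.66-fold higher in C2C12 (exact 95% interval 1.81 to 17.1) and Itgb1 2.37-fold higher (1.20 to 5.51). These intervals cover counting error only. Dysf had a pooled ratio of 0.578 (0.0953 to 23.7). The Ncam1 ratio was 4.51 between the co-cultured lines and 4.49 between the control lines, with lower limits of 1.53 and 0.802. The Itgb1 ratio was 2.11 between the co-cultured lines and 2.48 between the control lines, with lower limits of 0.961 and 0.684. Of these intervals by condition, only that of Ncam1 between the co-cultured lines left out 1.

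The limits rested on NSC34 co-culture 2, which held 30314 of the 70865 reads. Without it 0 reads allow 74.0 CPM, and the bounds were 7.30 for Mymk, 1.74 for Mymx, 1.72 for Itga7 and 1.68 for Cav3, with none for Cdh15. The ratio of C2C12 to NSC34 was then 5.33 for Ncam1 and 1.81 for Itgb1. These ratios rested on 2 and 6 of 40551 NSC34 reads, and no interval was computed for them. By library, Itgb1 had no read in 2 of 6 co-culture and 4 of 6 control NSC34 libraries, and Ncam1 had none in 4 of 6 co-culture and 5 of 6 control NSC34 libraries. edgeR fits of the lines called 543 of 1113 genes (48.8%) between the co-cultured lines and 276 of 818 (33.7%) between the control lines. Mymk, Ncam1 and Itgb1 entered these fits only through their C2C12 reads, so their tests are not given and the pooled ratios stand as a description. Within NSC34, 49 genes could be tested between co-culture and control, none of the 10 among them. edgeR called 0 of the 49 (1 at an unadjusted p under 0.05), and DESeq2 and limma-voom called 0.

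**Figure D5:**
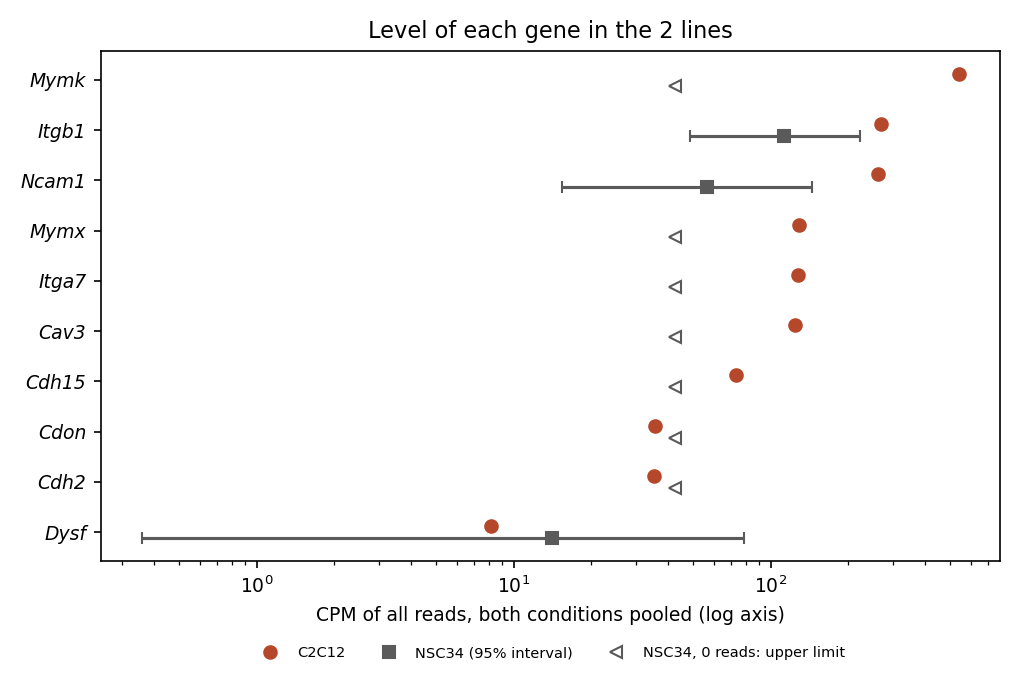
Level of the 10 genes in C2C12 (circles) and NSC34 (squares with exact 95% intervals), in CPM of all reads pooled over both conditions, on a log axis; open triangles are the upper limit of 42.3 CPM for genes with 0 NSC34 reads. Mymk lies at 540 CPM in C2C12, far above that limit, while Cdh2 and Cdon lie below it.

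Across the 12 C2C12 libraries, the genes whose level ran most like each of the 3 most-read genes were as follows, by Spearman's rho over 12 libraries that share depth and composition. They were picked by rank from the 2570 genes tested, so high values are selected and no p is given. For Mymk they were Actc1 (0.888), Rapsn (0.874) and Rpl7 (0.846). For Itgb1 they were Hmgcs1 (0.909), Rrbp1 (0.895) and Rbms3 (0.895), and for Ncam1 Cct3 (0.874), Prkrip1 (0.874) and Klhl40 (0.832). Among the 7 tested genes themselves the rho reached 0.629 for Mymx with Cdh15 and -0.741 for Mymk with Itga7.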

How the data were processed

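The authors deposited raw counts, whole numbers of Nanopore reads per Ensembl transcript in 1 table per line, as plain unscaled values; the build is GRCm38, per the submitters' processing notes. Which aligner, counter and annotation the authors used, and whether strand was counted, is not given in the sources used here. Identifiers without version matched GENCODE M21 for 37415 of 37677 C2C12 and 10374 of 10427 NSC34 transcripts, and counts were summed per gene. Unmatched transcripts held 0.224% of C2C12 reads and 0.238% of NSC34 reads.

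edgeR 4.0.16 in R 4.3.3 was used for co-culture against control within a line and for C2C12 against NSC34 within a condition (filterByExpr, TMM, quasi-likelihood test, Benjamini-Hochberg over all tested features, threshold 0.05). It was also run on simulated counts with the same spread for all features of a fit, and no result here rests on that run. C2C12 fits hold 12 libraries. Alternatives were DESeq2 1.42.0, limma-voom 3.58.1, RLE factors, unscaled library totals, other filters, a length correction (loess, span 0.5), a replicate block and libraries left out. The counts of Itga7 transcripts in the integrin ratio and the omission of NSC34 co-culture 2 were chosen after seeing the data. Shared sequence was searched with BLAST+ 2.17.0. A gene with 0 reads has an upper limit of 3 reads; intervals are exact at 95% and cover counting error only.

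The genes and lists were chosen with earlier results of these data known. The text names all 10 genes, each list gene past the threshold or else those of smallest p, and transcripts with 10% of a gene's reads or past the filter. Cavin1 and Mef2c, which did not pass, are named besides. No 2 C2C12 libraries of the same group were duplicates (30 pairs, lowest chi-square per degree of freedom 1.26), and pairs across groups were not compared. The labels do not say that replicates were separate cultures, so p-values measure only the spread between these libraries, which may be technical.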

Additional observations from a re-analysis of the deposited data

Results flagged for a closer look

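Cav3 was flagged in both C2C12 groups because 1 library lay far below the other 5 of its group. In co-culture this was library 3, at 55.7 CPM (8 reads), where the others had 99.1 to 121 CPM. In control it was library 1, at 63.6 CPM (8 reads), where the others had 136 to 157 CPM. Chance flags about 1 in 20 groups. Both libraries were shallow, with 143502 reads in co-culture 3 and 125872 in control 1. Control 4, with 121154 reads, had the highest control level, 157 CPM. Spearman's rho of the Cav3 level with total reads was 0.210 over the 12 libraries, and the part of depth was not tested.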

How the results depend on the processing

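In C2C12, 0 of the 7 tested genes passed in any setting. The count of all genes past the threshold was 37, and it was 58 with library totals, 106 without a filter, 10 without controls 1 and 4, and 11 to 74 with 1 library left out. The Mymk log2 fold change turned to 0.0523 without a filter and to 0.0171 without control 2, and that of Mymk-201 to 0.0428 and 0.0113; with 1 library left out they ran between -0.0843 and 0.0171 and between -0.100 and 0.0113. The transcript count of 10 became 34 with DESeq2, 31 with limma-voom, 126 without a filter (Cdon-202 being 1 of them), 2 without controls 1 and 4, and 5 to 15 with 1 library left out. Within NSC34 0 became 0 to 1 with 1 library left out.

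Between lines, the co-cultured count of 543 (48.8% of 1113 genes, 2 of the 10) became 2121 without a filter (14.6% of 14500 genes, 9 of the 10). With 1 library left out it was 324 to 805 (1 to 6 of the 10). The control count of 276 (33.7% of 818 genes) became 181 with DESeq2 and 1499 without a filter (10.6% of 14100 genes, 7 of the 10). It was 490 without libraries under 1000 reads (4 of the 10), and 47 to 513 with 1 library left out (0 to 5 of the 10). It held 1 of the 10 with RLE factors, library totals, DESeq2, limma-voom or the replicate block. The genes among the 10 entered these fits through their C2C12 reads, so these counts of them support nothing. Leaving out 1 library also changed how many genes were tested, so those counts cannot be compared as shares. Cdon-202 was not tested with the filter; other causes were not tested.

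Replicate numbers did not pair C2C12 libraries: same-number correlations ran between -0.05 and 0.105, and 2 co-culture and 1 control libraries were closest to their own number. In NSC34 they ran between -0.232 and 0.325. With the replicate block, 26 C2C12 genes, 1 C2C12 transcript, 0 NSC34 genes, 492 genes between co-cultured lines and 241 between control lines passed. Depth limits Cdh2, Cdon and Dysf in C2C12 and all 10 genes in NSC34.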
